A study of Mus musculus with 22 samples.

Results

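Collagen chains and the enzymes that cross-link them were examined in bulk RNA sequencing of 22 mouse livers. The members were taken by name from the deposited table: every gene symbol formed like that of a collagen chain, and the lysyl oxidase genes Lox, Loxl1, Loxl2, Loxl3 and Loxl4. This gave 49 members of 18716 rows, of which 44 were chains and 5 were lysyl oxidases. The chains fell into 11 fibrillar chains, 8 chains of basement membranes and their margin, and 25 other chains. All animals carried the genotype Fah-/-, in which fumarylacetoacetate hydrolase, the final step of tyrosine catabolism, is missing. D0 stands for 7 livers that the labels give as normal and as taken on day 0. The other livers came from mice that had received cells labelled td-Hepatocytes and had then been treated for 28 days after NTBC, a drug that blocks tyrosine catabolism upstream and protects animals lacking Fah, was withdrawn. Of these, 8 were given vehicle and 7 an agent labelled YC. Time, transplantation and NTBC withdrawal differ together between D0 and the other groups, so their parts in any difference from D0 cannot be told apart.

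Collagens are proteins whose chains wind into a triple helix, which needs a glycine at the start of each triplet of residues. Fibrillar chains such as those of types I, III and V build the banded fibrils of connective tissue, and in a scarred liver they form most of the new matrix. Type IV chains form the sheet-like network of basement membranes, and types XV and XVIII sit at its margin. Type VI forms beaded filaments, and the FACIT chains lie on the surface of fibrils. Lysyl oxidases are copper-dependent enzymes that oxidize lysines outside the cell, the step from which the cross-links of collagen and elastin form. In liver, stellate cells and portal fibroblasts are known as main sources of fibrillar collagen, and hepatocytes are known to make type XVIII.

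The coding sequences show the long helix of the fibrillar chains. A coding sequence was found for all 49 members in the GENCODE M21 annotation of mm10, and in each the longest unbroken run of triplets that begin with a glycine codon was counted. Fibrillar chains had 216 to 344 such triplets in a row, with a median of 338. The 6 type IV chains had 39 to 66 in a row, broken by other residues into 16 to 18 runs of at least 10 triplets. Type VI chains had 37 to 87, FACIT chains 32 to 113 and transmembrane chains 40 to 56, so run length does not set type IV apart from these. Col18a1 and Col15a1 had 30 each, and the lysyl oxidases had 1 to 4. Triplets 11 to 18 of the longest run are shown for the 3 most abundant fibrillar chains, with glycine codons in capitals.
Col1a1: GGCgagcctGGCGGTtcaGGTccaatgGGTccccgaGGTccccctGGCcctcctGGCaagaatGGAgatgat
Col1a2: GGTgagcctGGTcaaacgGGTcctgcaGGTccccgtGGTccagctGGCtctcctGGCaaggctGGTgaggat
Col3a1: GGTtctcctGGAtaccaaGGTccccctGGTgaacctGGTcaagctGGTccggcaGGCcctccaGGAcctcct
The end of the longest run is shown for the most abundant type IV chain and for Col18a1, where the even spacing of the capitals stops.
Col4a1: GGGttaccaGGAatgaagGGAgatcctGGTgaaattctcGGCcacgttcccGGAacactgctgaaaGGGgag
Col18a1: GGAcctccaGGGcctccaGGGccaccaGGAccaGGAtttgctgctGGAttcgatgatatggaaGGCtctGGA
The copper site of the lysyl oxidases is shown for 4 enzymes as 11 codons, with the 4 histidine codons in capitals.
Loxl1: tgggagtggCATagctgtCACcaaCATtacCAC
Loxl2: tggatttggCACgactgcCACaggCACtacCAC
Loxl3: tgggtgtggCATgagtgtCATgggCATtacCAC
Loxl4: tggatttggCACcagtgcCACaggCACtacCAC
Loxl2 and Loxl4 shared 31 of these 33 bases, and Loxl1 and Loxl2 shared 22. These 4 genes lie on mm10 chromosome 9 (Loxl1, 58287738 to 58313186), chromosome 14 (Loxl2, 69609068 to 69695834), chromosome 6 (Loxl3, 83034173 to 83052562) and chromosome 19 (Loxl4, 42593982 to 42612813).

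**Figure D1:**
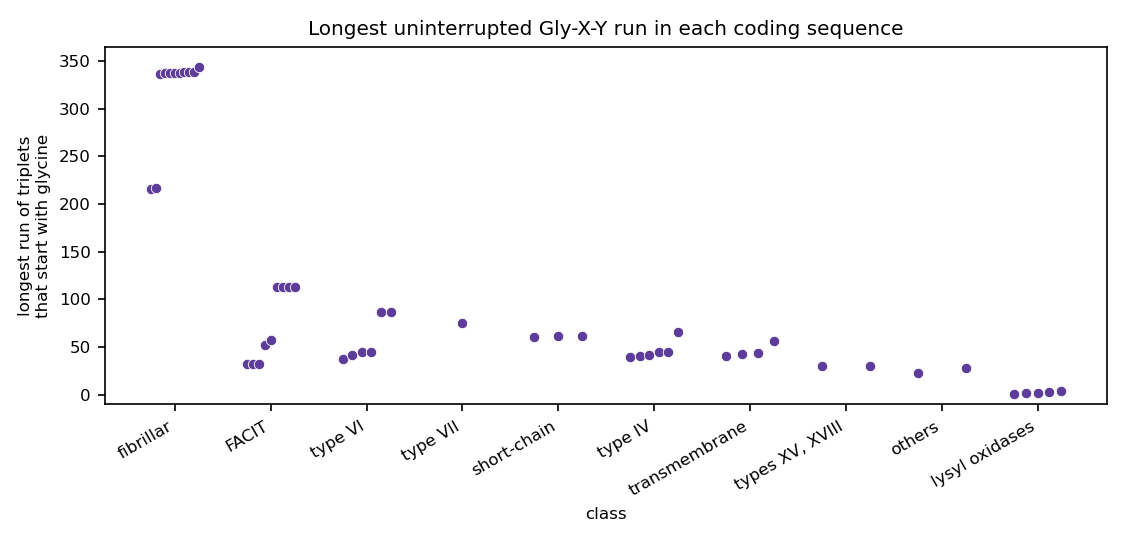
Longest unbroken run of triplets that start with a glycine codon (vertical axis, triplets) in the coding sequence of each of the 49 members, by class (horizontal axis), with 1 point per gene. Fibrillar chains lie between 216 and 344, the lysyl oxidases between 1 and 4, and the type IV chains, at 39 to 66, overlap with type VI and FACIT chains.

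The deposited values are RPKM, reads scaled for gene length and library depth, so levels can be set side by side between genes. Estimated depths were 50300000 to 82820000 per library. Fah served as the check of the labels: RPKM values ran from 21.1 to 38.7 in D0, from 271 to 542 in vehicle and from 31.5 to 407 in YC livers. Libraries YC 6 and YC 7 stood apart, with Fah at 41.3 and 31.5 RPKM, the first just above the highest D0 value and the second within the D0 range. Libraries vehicle 1 and YC 4 held transcripts of the pancreatic acinar enzyme Prss2 at 65.3 and 135 RPKM, against at most 0.409 in the other 20. Y-linked transcripts of 4 genes summed to at most 0.0454 RPKM in all 7 D0 libraries, to at least 5.55 in all 8 vehicle libraries, and were present in 3 of 7 YC libraries. In mice that received cells they could come from host or transplanted cells, which was not tested. Sex, of host or transplanted cells, and the step from D0 to vehicle therefore cannot be told apart. The defining hepatocyte marker Alb was at 14423.6 RPKM or more in every library, lowest in YC 6 and YC 7 (14423.6 and 15245 RPKM), against at least 32572.8 in D0 and 38275.7 in vehicle livers. The labels do not say whether replicates are separate animals, so the spread behind each p-value could be technical in part.

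Most members were scarce. Of the 49, 10 stayed below 0.1 RPKM in every library and 25 stayed below 1 RPKM. The 10 included the cartilage chains Col2a1, Col11a1 and Col10a1 and the skin chain Col17a1. Filtering at 0.5 RPKM in at least 7 libraries left 24 members: 7 fibrillar chains, 5 of basement membranes, 7 other chains and all 5 lysyl oxidases. In the order of median levels, Col18a1 came first in every group, and its D0 values did not overlap with those of the next, Col14a1. Col14a1, a FACIT chain also called undulin, did not overlap with Col4a1 in D0 livers either. In vehicle and YC livers Col3a1 took the place after Col18a1, and every neighbouring pair below it overlapped.

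Differences were tested with limma on log2(RPKM + 0.5), a scale that understates the change of low genes, and a gene was called at a Benjamini-Hochberg adjusted p under 0.05 over all genes tested. From D0 to vehicle, Col1a1, Col1a2, Col3a1 and Col5a3 of the fibrillar chains, Col4a1, Col4a2 and Col4a5 of type IV, Col6a1, Col6a2 and Col6a3 of type VI, and Loxl1 were higher, without overlap between the groups. The share of all tested genes without overlap is not given here, so a lack of overlap describes each gene and does not set the members apart. Of the 24 members past the filter, 14 were called higher, where 28.2% of all 12537 tested genes were, and 1 was called lower, where 29.9% were. Fitted without the filter, all 49 members gave 19 called higher (background 20.8%) and 3 lower (background 21.4%). The median log2 difference over the 49 was 0.23, against 0.01 over all 18716 genes. By class, 4 of 11 fibrillar chains, 5 of 8 basement membrane chains, 7 of 25 other chains and 3 of 5 lysyl oxidases were called higher in that fit. With median-ratio scaling 16 of 24 members were called higher (background 29.2%) and 1 lower (background 30.8%), and without YC 6 and YC 7, which also set the shared spread, 17 higher (background 30.8%) and 1 lower (background 31.7%).

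**Figure D2:**
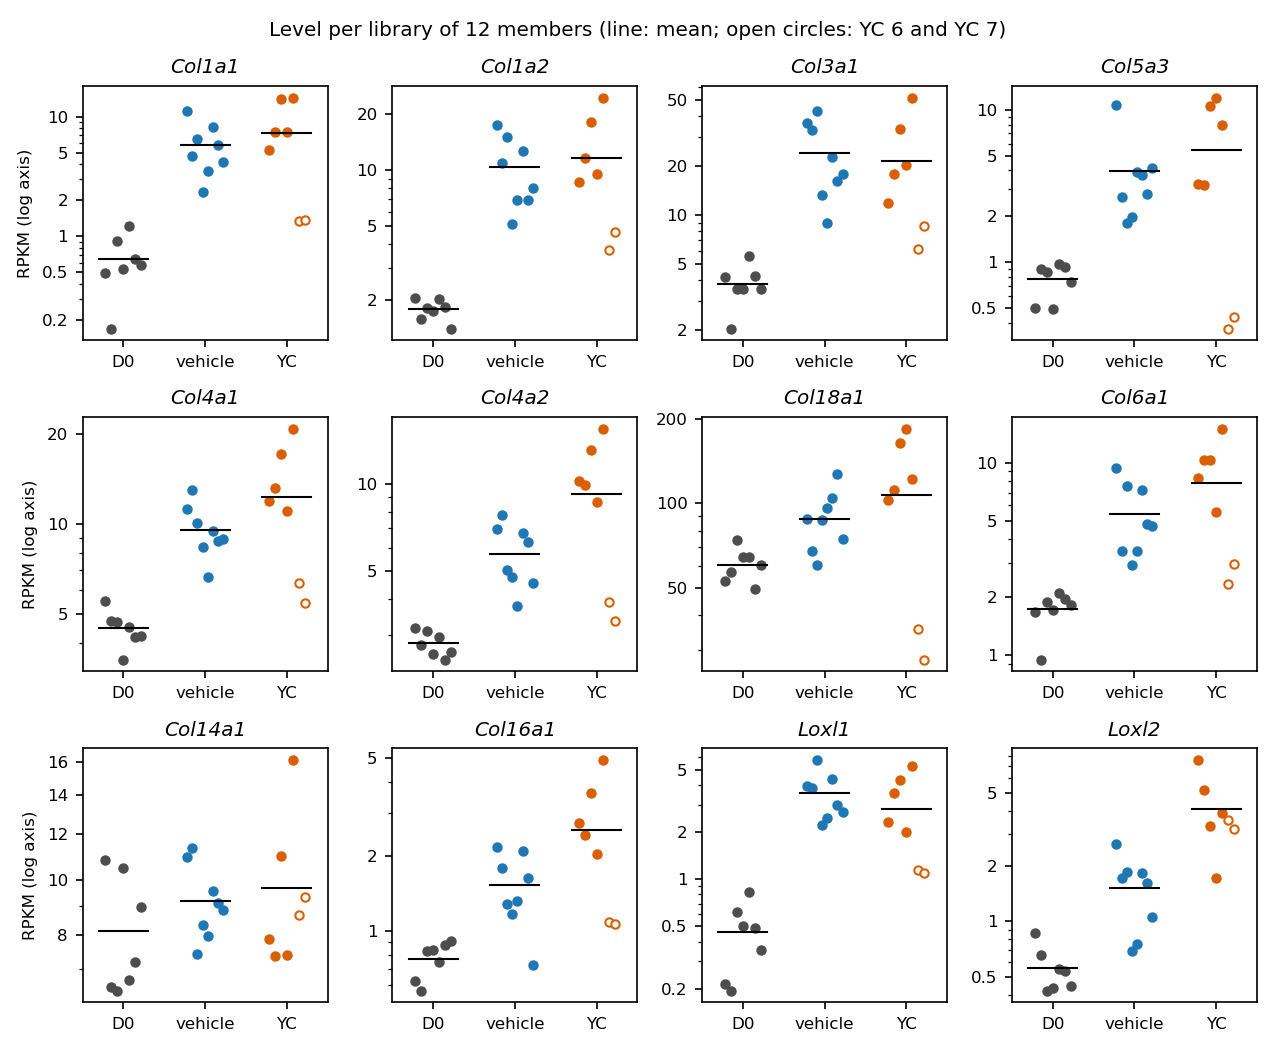
RPKM of 12 members (vertical log axes) in the D0 (n = 7), vehicle (n = 8) and YC (n = 7) libraries, with 1 point per library, a line at the mean and open circles for YC 6 and YC 7. Col1a1 lies at 0.168 to 1.21 in D0 and 2.34 to 11.1 in vehicle libraries, and the open circles lie below the vehicle range for Col1a1 but not for Loxl2.

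Among fibrillar chains, Col1a1 and Col1a2, which together make type I collagen, moved with Col3a1, the sole chain of type III. Col1a1 (chromosome 11, 94936224 to 94953042) was at 0.168, 0.578 and 1.21 RPKM (lowest, median, highest) in D0 livers and 2.34, 5.24 and 11.1 in vehicle livers. No vehicle liver overlapped with a D0 liver, and the log2 difference was 2.38 ± 0.40 (SE, adjusted p = 2.79e-05), a 5.2-fold rise on that scale. Col1a2 (chromosome 6, 4504814 to 4541544) went from 1.41, 1.82 and 2.07 RPKM in D0 to 5.17, 9.45 and 17.5 in vehicle livers. Its groups did not overlap either, with a log2 difference of 2.15 ± 0.30 (SE, adjusted p = 3.25e-06). Col3a1 (chromosome 1, 45311538 to 45349706) was at 2.02, 3.52 and 5.67 RPKM in D0 and 8.91, 20.2 and 43.0 in vehicle livers, again without overlap. Its log2 difference was 2.37 ± 0.37 (SE, adjusted p = 1.15e-05). Type V chains join type I fibrils and are known to limit their width. Of these, Col5a3 rose by 1.65 ± 0.48 on the log2 scale (SE, adjusted p = 0.00556), from a median of 0.859 to 3.25 RPKM, with no overlap. For Col5a1 and Col5a2 the groups overlapped, and differences of 0.34 ± 0.21 and 0.64 ± 0.28 (SE) were not called (adjusted p = 0.154 and 0.0587), although Col5a2 was called with median-ratio scaling (adjusted p = 0.0363) and without YC 6 and YC 7 (adjusted p = 0.0307).

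Of the basement membrane chains, 3 type IV chains past the filter were called higher and both chains of types XV and XVIII were not. Col4a1 and Col4a2, which together form the common type IV trimer, start 21 bases apart in opposite directions on chromosome 8, at 11312826 and 11312805. Col4a1 was at 3.52, 4.52 and 5.54 RPKM in D0 and 6.67, 9.18 and 13.0 in vehicle livers, and Col4a2 at 2.45, 2.76 and 3.17 against 3.77, 5.65 and 7.78. Neither gene's groups overlapped, and the log2 differences were 1.00 ± 0.21 and 0.89 ± 0.24 (SE, adjusted p = 0.000266 and 0.00253). Col4a5, a chain of the kidney-type network also found elsewhere, rose from a median of 0.254 to 0.884 RPKM, by 0.79 ± 0.18 (SE, adjusted p = 0.000565). Its partner Col4a6, which starts 1309 bases away, stayed at or under 0.324 RPKM in every library. In the fit without the filter Col4a6 was called higher as well (0.26 ± 0.08 SE, adjusted p = 0.0109), from a median of 0.0357 to 0.119 RPKM, with overlap. Col18a1, whose C-terminal fragment is endostatin, was at 49.4, 60.3 and 74.2 RPKM in D0 and 60.5, 87.6 and 127 in vehicle livers. These ranges overlapped and the difference of 0.52 ± 0.30 (SE) was not called (adjusted p = 0.148), although it was called without YC 6 and YC 7 (adjusted p = 0.006). The same held for Col15a1, with a difference of 0.48 ± 0.23 (SE, adjusted p = 0.0789, and 0.0455 without YC 6 and YC 7).

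Among the other chains, type VI rose as a set of 3. Col6a1 and Col6a2 lie close together on chromosome 10 and pair with Col6a3 in one molecule. Col6a1 went from 0.948, 1.82 and 2.11 RPKM to 2.94, 4.75 and 9.34, with no overlap. The log2 differences were 1.34 ± 0.30, 1.35 ± 0.34 and 1.23 ± 0.27 for Col6a1, Col6a2 and Col6a3 (SE, adjusted p = 0.000602, 0.00163 and 0.000498). The other type VI chains, Col6a4, Col6a5 and Col6a6, did not pass the filter. Col14a1 was at 6.41, 7.18 and 10.8 RPKM in D0 and 7.42, 8.98 and 11.3 in vehicle livers, and its difference of 0.18 ± 0.15 (SE) was not called (adjusted p = 0.324). Col16a1, another FACIT chain, rose by 0.64 ± 0.22 (SE, adjusted p = 0.0146), with overlapping groups. Col20a1, named after its values were seen, was the sole member past the filter that fell, from a median of 0.969 to 0.487 RPKM (log2 difference -0.61 ± 0.14 SE, adjusted p = 0.000834). Without the filter Col7a1, the chain of anchoring fibrils, and the minor fibrillar chain Col11a2 also fell, from medians of 0.254 and 0.319 RPKM to 0.0395 and 0.134.

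Loxl1, known for its part in elastic fibres, was the lysyl oxidase with the smallest adjusted p in this step. It was at 0.194, 0.488 and 0.827 RPKM in D0 and 2.21, 3.40 and 5.80 in vehicle livers, with no overlap and a log2 difference of 2.06 ± 0.25 (SE, adjusted p = 4e-07). Loxl2, which acts on type IV collagen among other substrates, was at 0.419, 0.538 and 0.868 RPKM against 0.691, 1.68 and 2.63. Its groups overlapped, and it rose by 0.88 ± 0.22 (SE, adjusted p = 0.00176). Lox itself rose by 0.80 ± 0.21 (SE, adjusted p = 0.00238) from a median of 0.0591 to 0.553 RPKM. Loxl3 and Loxl4 were not called (differences of 0.24 ± 0.13 and 0.31 ± 0.25, SE), although Loxl3 was with median-ratio scaling (adjusted p = 0.0422).

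**Figure D3:**
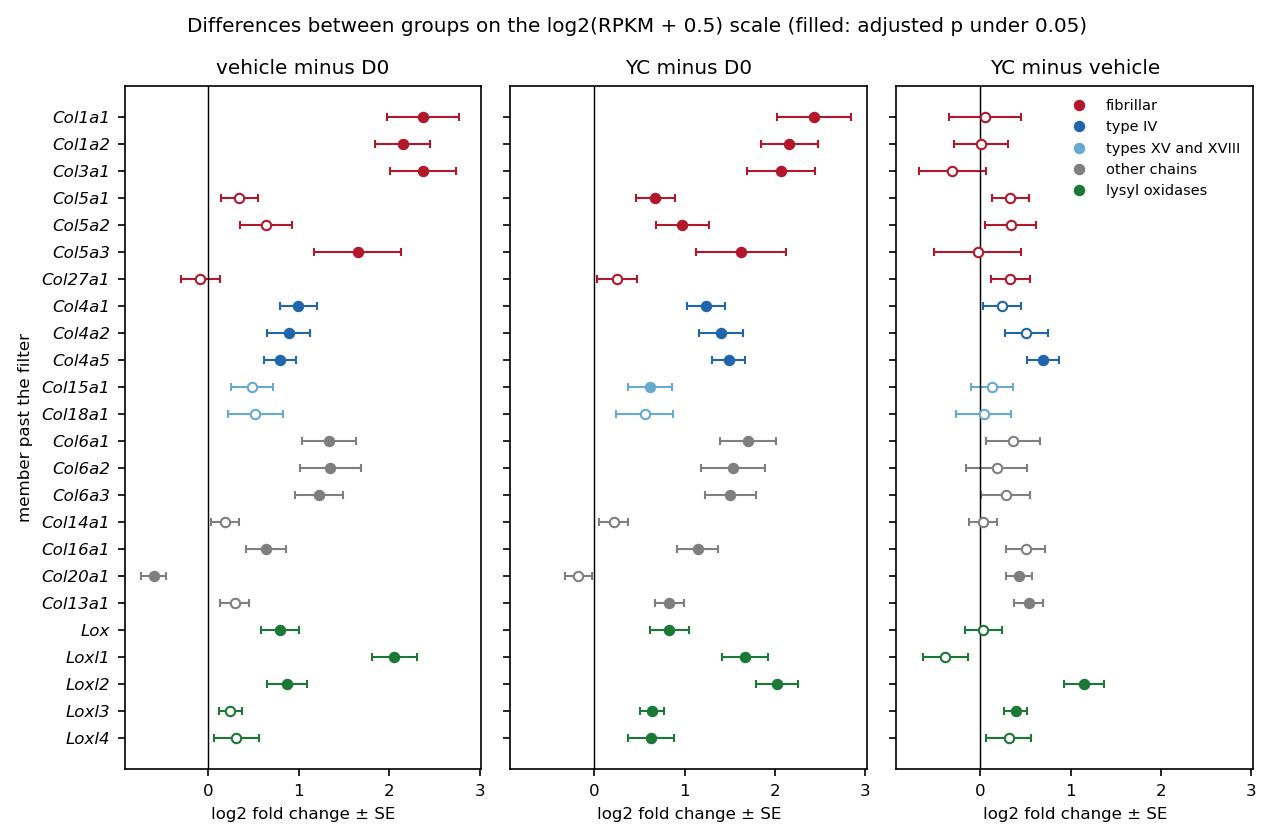
Log2 fold change with its SE (horizontal axes) of the 24 members past the filter (vertical axis) in each comparison, coloured by class, with filled points where the adjusted p was under 0.05. From D0 to vehicle the type I and III chains and Loxl1 lie above 2, the type IV chains near 1 or below, and Col14a1 near 0.

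Ratios of 2 members within a library depend on its scaling only through the 0.5 added to each value. The step from D0 to vehicle changed the ratio of Col4a1 to Col1a1 from 9.81 ± 8.46 (SD, n = 7) to 1.95 ± 0.865 (SD, n = 8). The difference in mean log2 ratio, taken on RPKM + 0.5, was -1.38 (two-sided exact permutation p = 0.000622, adjusted p = 0.00746 over 12 tests). The D0 ratios of 3.73 to 28.3 did not overlap with the vehicle ratios of 1.01 to 3.58. The ratio of Col1a1 to Col1a2 was 0.358 ± 0.163 in D0 and 0.558 ± 0.143 in vehicle livers (SD), which was not called (exact permutation adjusted p = 0.31). Col3a1 to Col1a1 and Col4a1 to Col4a2 were not called in this step either (exact permutation adjusted p = 0.987 and 0.31).

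The make-up of the chain transcripts shifted with these changes. Col18a1 alone made up 62.9 ± 3.61% of the summed RPKM of the 44 chains in D0 livers, 49.4 ± 11.6% in vehicle and 47.4 ± 9.96% in YC livers (SD). Without it, fibrillar chains made up 30.1 ± 3.11% of the rest in D0, 50.7 ± 5.91% in vehicle and 43.5 ± 8.87% in YC livers (SD). The D0 values reached 35.5% and the vehicle values began at 43.1%. Type IV chains made up 22.3 ± 2.10%, 18.8 ± 3.48% and 22.2 ± 3.01% (SD), and type VI chains 10.2 ± 1.98%, 12.7 ± 2.10% and 14.2 ± 2.76% (SD). Col14a1 went from 23.1 ± 5.35% in D0 to 10.6 ± 2.82% in vehicle livers (SD), while its own level was not called as changed. These shares are descriptions without a test, and a share moves when any other chain does.

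**Figure D4:**
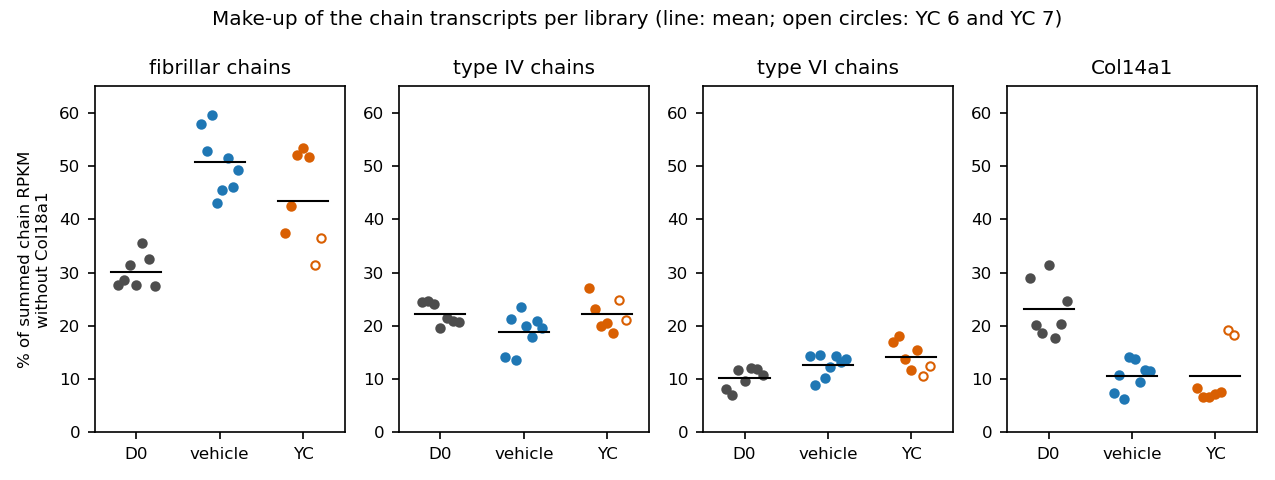
Share of the summed RPKM of 43 chains, without Col18a1 (vertical axes, percent), taken by fibrillar, type IV and type VI chains and by Col14a1 in each library of D0 (n = 7), vehicle (n = 8) and YC (n = 7), with a line at the mean and open circles for YC 6 and YC 7. The fibrillar share is 27.6 to 35.5% in D0 and 43.1 to 59.6% in vehicle libraries.

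From D0 to YC, which shares its D0 livers with the step above, 20 of the 24 members past the filter were called higher (background 41.2%) and 0 lower (background 12.3%). Over all 49 without the filter, 26 were called higher (background 34.8%) and 0 lower (background 9.08%), with a median log2 difference of 0.25 against 0.11 over all genes. The largest differences were those of Col1a1 (2.43 ± 0.41 SE, adjusted p = 3.09e-05), Col1a2 (2.16 ± 0.31, adjusted p = 4e-06), Col3a1 (2.07 ± 0.38, adjusted p = 8.36e-05) and Loxl2 (2.02 ± 0.23, adjusted p = 1.22e-07). Col1a1 lay at 1.33, 7.43 and 14.4 RPKM in YC livers, all above the D0 range. Col4a1, Col4a2 and Col4a5 were higher by 1.24 ± 0.21, 1.40 ± 0.24 and 1.49 ± 0.18 (SE), and Col6a1, Col6a2 and Col6a3 by 1.70 ± 0.31, 1.53 ± 0.35 and 1.51 ± 0.28 (SE). Col18a1 (0.56 ± 0.31 SE, adjusted p = 0.139) and Col14a1 (0.22 ± 0.16 SE, adjusted p = 0.263) were not called, but Col18a1 was without YC 6 and YC 7 (1.15, adjusted p = 9.07e-06) and without either of them alone (adjusted p = 0.0276 and 0.00887). With median-ratio scaling, which moved the median of all genes in this comparison from 0.25 to -0.05, 17 members were called higher (background 25.8%) and 1, Col20a1, lower (-0.39 ± 0.13 SE, background 28.6%). Without YC 6 and YC 7, 22 were called higher (background 42%) and 0 lower (background 14.4%), and with quantile normalization 13 higher (background 23.7%) and 1 lower (background 29.9%). The ratio of Col4a1 to Col1a1 was again lower than in D0 livers, at 2.42 ± 1.40 (SD, n = 7), with a log2 difference of -1.19 (exact permutation adjusted p = 0.021). In the livers without Y-linked transcripts alone it was not called (-1.003, exact permutation adjusted p = 0.0727). In those same livers, 7 D0 and 4 YC, 15 members were called higher (background 32.7%) and 0 lower (background 9.12%).

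Between YC and vehicle livers, both taken on day 28 after NTBC withdrawal, Loxl2 and Col4a5 were higher in YC livers under every scaling tried. The other 3 calls were lost with median-ratio scaling, and 11 members more were called without YC 6 and YC 7. Of 24 past the filter, 5 were called higher in YC livers (background 44.6%) and 0 lower (background 6.14%). The median over the 24 was 0.30 and that over all 12537 genes 0.31. Over all 49 without the filter, 10 were called higher (background 34.9%) and 0 lower (background 4.15%). The 5 were Loxl2, Col4a5, Col13a1, Col20a1 and Loxl3, of which the last 3 are named after their values were seen. With median-ratio scaling, which brought the median of all genes in this comparison to 0.01, 2 were called higher (background 18.2%), Loxl2 and Col4a5, and 1 lower (background 16.7%), Loxl1. Quantile normalization gave 2 higher (background 17.9%) and 1 lower (background 16.5%).

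Loxl2 (chromosome 14) was at 1.72, 3.58 and 7.60 RPKM in YC livers and 0.691, 1.68 and 2.63 in vehicle livers. Its groups overlapped between 1.72 and 2.63 RPKM, and it was 2.22-fold higher in YC livers (log2 difference 1.15 ± 0.22 SE, adjusted p = 0.000212; 0.86 ± 0.20 with median-ratio scaling, adjusted p = 0.00233). Col4a5 (chromosome X, 141475385 to 141689234) was at 0.637, 1.63 and 2.93 RPKM against 0.361, 0.884 and 1.28. It was higher by 0.69 ± 0.18 (SE, adjusted p = 0.00262), and by 0.45 ± 0.16 with median-ratio scaling (SE, adjusted p = 0.0293). Loxl1 was lower by 0.39 on the log2 scale as deposited, which was not called (-0.39 ± 0.25 SE, adjusted p = 0.197), and by 0.67 with median-ratio scaling, which was (-0.67 ± 0.23 SE, adjusted p = 0.0281). Without YC 6 and YC 7 it was not called under either scaling (-0.04 and -0.32, adjusted p = 0.904 and 0.207). Col13a1, a transmembrane chain, Col20a1 and Loxl3 were higher by 0.54 ± 0.16, 0.43 ± 0.14 and 0.39 ± 0.13 (SE), and none of the 3 was called with median-ratio scaling. Col22a1, a scarce FACIT chain of tissue junctions seen in the fit without the filter, was at 0.154, 0.397 and 0.677 RPKM in YC and 0.0278, 0.0941 and 0.193 in vehicle livers.

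No type I or III chain was called between YC and vehicle livers. Col1a1, Col1a2 and Col3a1 differed by 0.05 ± 0.40, 0.01 ± 0.30 and -0.31 ± 0.37 (SE, adjusted p = 0.924, 0.981 and 0.5). With median-ratio scaling all 3 differences were below 0 (-0.25, -0.32 and -0.64) and not called. Col4a1 and Col4a2 differed by 0.24 ± 0.21 and 0.51 ± 0.24 (SE, adjusted p = 0.336 and 0.0722), and Col18a1 by 0.04 ± 0.30 (SE, adjusted p = 0.923). The ratio of Col4a1 to Col4a2 was 1.38 ± 0.176 in YC and 1.70 ± 0.222 in vehicle livers (SD, n = 7 and 8), a log2 difference of -0.27 (two-sided exact permutation p = 0.00979, adjusted p = 0.0392). That call was lost in 11 of 22 fits that left out 1 library (exact permutation adjusted p from 0.0163 to 0.0813) and without vehicle 1 and YC 4 (exact permutation adjusted p = 0.117).

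The YC livers were not alike, and this bears on each value above. YC 6 and YC 7 held Col1a1 at 1.33 and 1.37 RPKM, Col3a1 at 6.23 and 8.54, Col5a3 at 0.364 and 0.437, and Col18a1 at 35.6 and 27.7. For Col1a1, Col1a2, Col3a1, Col5a3, Col4a1, Col18a1, Col6a2 and Loxl1 both lay below every vehicle liver, and for Col5a3 and Col18a1 below every D0 liver. The other 5 YC livers held Col1a1 at 5.30 to 14.4 RPKM and Col18a1 at 103 to 185. Loxl2 did not follow that split, at 3.58 and 3.19 RPKM in YC 6 and YC 7 and 1.72 to 7.60 in the others, nor did Col14a1, at 8.68 and 9.31 against 7.38 to 16.2. Among all 22 libraries these 2 had the highest Lrat, a gene of vitamin A storage that marks stellate cells, at 20.5 and 32.4 RPKM, and the highest Dcn, a fibril-associated proteoglycan, at 261 and 494 RPKM. Why these livers differ was not tested. YC 6 and YC 7 were set apart by values of these same data. They held the lowest YC values of Col1a1, Col1a2, Col3a1, Col5a3, Col4a1, Col4a2, Col6a1 and Col18a1. Leaving them out therefore raises the YC means of these genes by itself, and the calls that follow are no independent support. Without them, 16 of 24 members were called higher in YC than in vehicle livers (background 44.1%) and 0 lower (background 7.2%). Without YC 6 alone 8 were called, and without YC 7 alone 8. The share of all genes called in those fits is not given here, so these counts are not read as a result about the members. Those 16 included Col1a1 (0.73 ± 0.29 SE, adjusted p = 0.0416), Col4a1 (0.59 ± 0.15), Col4a2 (0.94 ± 0.16), Col6a1 (0.84 ± 0.24), Col18a1 (0.63 ± 0.17) and Loxl2 (1.20 ± 0.25). Col3a1 (0.16 ± 0.35 SE, adjusted p = 0.721) and Col1a2 (0.46 ± 0.25 SE, adjusted p = 0.137) were not called. With median-ratio scaling as well, 6 of 24 were called higher (background 20.7%) and 0 lower (background 18%). In the livers with Y-linked transcripts alone, 3 YC and 8 vehicle, 9 were called higher (background 37.5%) and 0 lower (background 6.05%).

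**Figure D5:**
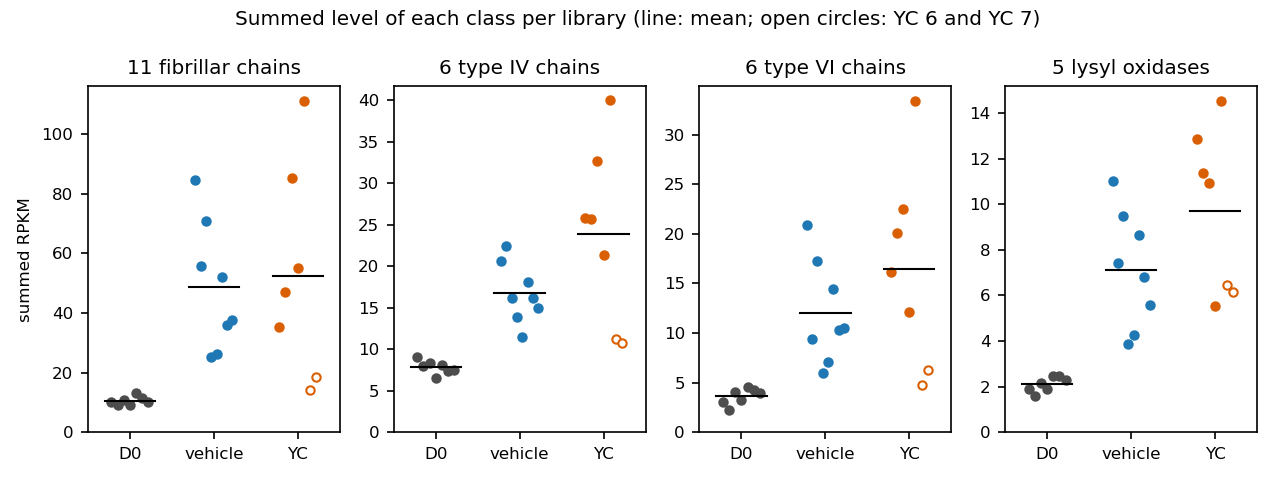
Summed RPKM (vertical axes) of the 11 fibrillar chains, 6 type IV chains, 6 type VI chains and 5 lysyl oxidases in each D0 (n = 7), vehicle (n = 8) and YC (n = 7) library, with a line at the mean and open circles for YC 6 and YC 7. The fibrillar sum is 9.18 to 13.4 in D0 and 25.3 to 84.6 in vehicle libraries, and the open circles lie at 14.1 and 18.5.

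Summed over a class, the fibrillar chains reached 10.6 ± 1.47 RPKM in D0, 48.6 ± 21.3 in vehicle and 52.4 ± 35.3 in YC livers (SD). The 6 type IV chains summed to 7.84 ± 0.803, 16.7 ± 3.57 and 23.9 ± 10.7 RPKM, and the lysyl oxidases to 2.11 ± 0.333, 7.14 ± 2.52 and 9.69 ± 3.61 RPKM (SD). YC 6 and YC 7 had fibrillar sums of 14.1 and 18.5 RPKM, above the D0 range of 9.18 to 13.4 and below the vehicle range. Within groups, Col6a1 followed Col1a1 across libraries on the log2 scale, with r = 0.93 in the 8 vehicle livers (rho = 0.952, exact permutation adjusted p = 0.0091 for r and 0.0183 for rho over 16 relations) and r = 0.861 without the 2 most distant livers. In the 7 D0 livers the same pair gave r = 0.896 (rho = 0.964, exact permutation adjusted p = 0.019 and 0.0222) and r = 0.683 without 2 livers. Col18a1 and Col1a1 gave r = 0.0906 in vehicle livers (rho = 0.143, exact permutation adjusted p = 0.869 and 0.802) and r = 0.155 without 2 livers. Col1a2 and Col1a1 gave r = 0.874 in vehicle livers (rho = 0.833, exact permutation adjusted p = 0.0234 and 0.082). Col3a1 and Col1a1 were not called in vehicle livers (r = 0.681, exact permutation adjusted p = 0.201). In D0 livers that pair was not called either (r = 0.86, exact permutation adjusted p = 0.121, and r = -0.314 without 2 livers). YC livers fell into separate sets and were given no correlation.

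Genes that handle collagen before and after secretion were counted against the background of 28.2% of all tested genes called higher and 29.9% called lower from D0 to vehicle. Lists of 19 genes of chain modification and folding, 8 of procollagen processing, and 12 of degradation and its inhibitors were described by counts, on genes past the filter. From D0 to vehicle, 6 of 17 folding genes were called higher and 4 lower, near that background, with a median log2 difference of 0.10 (0.00 over all genes). They included Serpinh1, the collagen chaperone HSP47, which rose from 7.06 ± 1.48 to 21.2 ± 5.54 RPKM (SD, log2 difference 1.50 ± 0.21 SE, adjusted p = 3.94e-06). P4hb, the shared subunit of prolyl 4-hydroxylase, was the most abundant uncalled gene of the list (641 ± 86.3 and 505 ± 65.4 RPKM, SD). Of the processing genes 3 of 5 rose and 0 fell, among them Adamts2, the enzyme that removes the N-propeptide, by 1.23 ± 0.15 (SE, adjusted p = 6.25e-07). Of the degradation genes 8 of 10 rose and 0 fell, among them Mmp2, a gelatinase, from 0.770 ± 0.219 to 4.90 ± 1.44 RPKM (SD).

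Partners in the matrix were counted against the same background. Of 14 fibril-associated genes 6 rose from D0 to vehicle and 0 fell, with biglycan (Bgn) at 40.2 ± 6.60 and 79.5 ± 14.1 RPKM (SD). Of 10 elastic fibre genes 8 rose and 0 fell, with Efemp2, a fibulin that brings lysyl oxidase to elastin, higher by 1.29 ± 0.19 (SE, adjusted p = 7.82e-06). Of 14 basement membrane partners 3 rose and 2 fell, no larger a share than that of all genes, with a median log2 difference of 0.26. Of 6 receptors 4 rose and 1 fell, led by Ddr1, a receptor kinase for collagen, from 0.886 ± 0.263 to 3.96 ± 1.50 RPKM (SD). Of 14 genes of transforming growth factor beta signalling, the pathway best known for driving fibrillar collagen genes, 3 rose and 6 fell. Smad3, one of its signal carriers and the called gene with the smallest adjusted p, fell from 9.47 ± 1.71 to 3.50 ± 1.23 RPKM (SD, log2 difference -1.36 ± 0.18 SE, adjusted p = 1.07e-06). The growth factor gene Tgfb1 went the other way, from a median of 5.45 RPKM (3.58 to 7.57) in D0 to 13.5 (5.64 to 18.1) in vehicle livers, with overlap.

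Between YC and vehicle livers 44.6% of all tested genes were called higher and 6.14% lower (18.2% and 16.7% with median-ratio scaling), and the lists are read against that. Folding genes were higher in 10 of 17 (4 with median-ratio scaling, and 1 lower). Processing genes were called in 0 of 5, degradation genes were higher in 1 of 10 and fibril-associated genes in 2 of 14. With median-ratio scaling the last pair of lists had 0 higher and 1 lower each, and without YC 6 and YC 7 the 3 lists had 3, 3 and 4 higher. Basement membrane partners were higher in 7 of 14, near the background (6 with median-ratio scaling, and 1 lower, and 10 without YC 6 and YC 7). Nidogen 1 (Nid1), which links the type IV and laminin networks, was at 23.8 ± 7.71 RPKM in YC and 6.89 ± 3.62 in vehicle livers (SD, log2 difference 1.77 ± 0.23 SE, adjusted p = 2.82e-06). Ddr1 was at 10.5 ± 3.76 and 3.96 ± 1.50 RPKM (SD, log2 difference 1.30 ± 0.23 SE, adjusted p = 7.08e-05). The receptor gene Tgfbr2 was at 32.0 ± 7.63 and 10.3 ± 2.88 RPKM (SD), and 10 of 14 genes of its pathway were called higher (4 with median-ratio scaling, and 1 lower, and 6 without YC 6 and YC 7). The microfibril gene Mfap4 was lower, at 2.03 ± 1.70 against 6.50 ± 5.28 RPKM (SD, log2 difference -1.52 ± 0.39 SE, adjusted p = 0.00276).

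Markers of several cell types moved along with the chains, and their part in these differences was not tested. Their counts stand against the same shares of all genes. In whole liver RNA, fewer cells of a type and less RNA per cell cannot be told apart. From D0 to vehicle, 4 of 4 tested myofibroblast and smooth muscle markers were higher, and the 6 markers of that list summed to 5.49 to 37.0 RPKM in D0 and 12.1 to 77.4 in vehicle livers. Portal fibroblast markers were higher in 5 of 6 (sums of 4.46 to 20.1 and 15.5 to 114 RPKM), macrophage markers in 5 of 6 (40.1 to 76.8 and 130 to 381), bile duct markers in 4 of 6 (7.52 to 13.8 and 15.6 to 43.6), mesothelial markers in 3 of 5 (0.489 to 5.59 and 1.34 to 26.9) and endothelial markers in 5 of 9, with 1 lower (90.3 to 166 and 132 to 236). Median sums in D0 and vehicle livers were 6.94 and 24.3 RPKM for the myofibroblast list and 9.66 and 18.3 for portal fibroblasts. Both vehicle medians lay below the highest D0 sum of the same list. Stellate cell markers were higher in 4 of 12, near the background, and lower in 1 (137 to 183 and 136 to 212 RPKM). Hepatocyte markers were higher in 2 of 6. No marker was at 0 in every library. Between YC and vehicle livers, hepatocyte markers were lower in 4 of 6 (sums of 35547 to 65965 RPKM in YC and 69154.5 to 103031 in vehicle livers) and stellate cell markers higher in 7 of 12 (139 to 320 and 136 to 212 RPKM, 2 of 12 with median-ratio scaling, and 1 lower). Bile duct markers were higher in 3 of 6, near the background of 44.6%, and in 1 of 6 with median-ratio scaling, near its background of 18.2%. Their sums were 35.3 to 86.2 RPKM in YC and 15.6 to 43.6 in vehicle livers. Portal fibroblast markers were higher in 1 of 6 and lower in 2 (0 and 3 with median-ratio scaling). Endothelial markers were higher in 1 of 9 and lower in 2 (0 and 5 with median-ratio scaling). Myofibroblast markers were higher in 1 of 4 and lower in 0 (1 and 2 with median-ratio scaling). The share of all genes called lower was 6.14%, and 16.7% with median-ratio scaling. No mesothelial or macrophage marker was called as deposited, and 3 of 6 macrophage markers were lower with median-ratio scaling.

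Promoter windows of the members were searched for common motifs. RefSeq (GRCm38.p6) gave windows of 300 bases around the start of 36 of the 49 members, 39 windows in all. Searched on both strands, TATAAA was in 5 windows (13.6% of all 32851 windows), CCAAT in 13 (37.4%) and CAGACA, the core of a SMAD element, in 9 (21%). GGGCGG, the core of a GC box, was in 24 of 39 windows, against 35.7% of all. Col4a1 and Col4a2, both among the genes with CCAAT and GGGCGG, start 21 bases apart, so their windows can share a match. A match is a description of these letters and not of a site in use.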

How the data were processed

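The authors deposited 1 table of RPKM values, with 1 column per library. Per the submitters' processing notes, TopHat 1.4.1, Cufflinks 1.3.0 and build mm10 had a part. Their settings, annotation and strand use are not stated in the sources used here. Depths of 50300000 to 82820000 were estimated from the steps of low values, and 29 of 106 low genes with 1 transcript gave whole reads (tolerance 0.1), too few for a count test.

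The 12537 genes that reached 0.5 RPKM in 7 or more libraries were fitted as log2(RPKM + 0.5) with limma 3.58.1 (trend, robust; R 4.3.3, statmod 1.5.0) in 1 model of 3 groups, adjusted by Benjamini-Hochberg over all genes. The code was tested on simulated data. Ratios were tested with exact two-sided permutation tests, adjusted over 12. The rest used scipy 1.17.1, numpy 2.4.6, pandas 2.3.3 and, for plots, matplotlib 3.10.9 under Python 3.11.15. Coding sequences and coordinates are from GENCODE M21 (mm10).

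Members and lists were chosen with earlier results of these data known. Full values are given for members at a mean of at least 5 RPKM in 1 group, or called with a log2 fold change of at least 1 in size. Of each list, the called gene with the smallest adjusted p and the most abundant uncalled gene could be named. Other members, the growth factor gene Tgfb1, and Prss2, Lrat and Dcn in the text on single libraries, were named after their values were seen. Alternatives were other pseudocounts, filters, scalings, weights, a replicate block and left-out libraries.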

Additional observations from a re-analysis of the deposited data

Results flagged for a closer look

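In 45 sets of values (15 members in 3 groups), 3 had a library far from the rest of its group by Dixon's test, where chance alone gives about 1 in 20. Col5a3 was at 10.8 RPKM in vehicle 1, against 1.82 to 4.16 RPKM in the other vehicle livers. Vehicle 1 is also 1 of the 2 libraries with pancreatic acinar transcripts. Col6a1 was at 0.948 RPKM in D0 2, against 1.69 to 2.11 RPKM in the other D0 livers. Col14a1 was at 16.2 RPKM in YC 5, against 7.38 to 11.001 RPKM in the other YC livers.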

How the results depend on the processing

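Of 45 differences (15 members in 3 comparisons), 31 kept their side of the threshold in every alternative run. Some of the 31 that were not called changed sign. With median-ratio scaling Col1a2 between YC and vehicle livers went from 0.01 to -0.32, and Col14a1 from D0 to YC from 0.22 to -0.11. Without YC 6 and YC 7, Col3a1 between YC and vehicle livers went from -0.31 to 0.16. Col5a3 between YC and vehicle livers turned from -0.02 to 0.82 without YC 6 and YC 7, and was called there. From D0 to YC, quantile normalization gave 13 members called higher (background 23.7%) in place of 20 (background 41.2%). Quantile normalization (background 29.9%) and median-ratio scaling (background 28.6%) each gave 1 called lower in place of 0 (background 12.3%). Between YC and vehicle livers, the 5 called higher (background 44.6%) became 10 without a filter (background 34.9%) and 16 without YC 6 and YC 7 (background 44.1%). They became 9 in livers with Y-linked transcripts (background 37.5%), and 2 each with quantile normalization (background 17.9%) and median-ratio scaling (background 18.2%). Array weights gave 14 and a filter at a mean of 1 RPKM gave 2. The share of all genes is not given here for those fits, so their counts are not read as a result about the members. Between YC and vehicle livers, median-ratio scaling (background 16.7%) and quantile normalization (background 16.5%) each gave 1 called lower in place of 0 (background 6.14%). From D0 to vehicle, 3 were called lower without a filter (background 21.4%) and 0 with the mean filter, in place of 1 (background 29.9%). The mean filter tests 19 members and no filter 49. The cause of the other changes was not tested.

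Without YC 6 and YC 7 the difference from D0 to YC was called for the log2 ratios of Col1a1 to Col1a2 (0.50), Col3a1 to Col1a1 (-0.57) and Col4a1 to Col4a2 (-0.24). The second was also called at a pseudocount of 0.1 (-0.81). Replicate numbers did not pair the samples (correlations of deviations from -0.39 to 0.23). With the replicate block no count of members called moved by over 1.5 times, and the log2 ratio of Col4a1 to Col1a1 was no longer called from D0 to YC (-1.19) and from D0 to vehicle (-1.41), nor that of Col4a1 to Col4a2 between YC and vehicle livers (-0.24). For ratios this block was a sign-flip test on pairs of libraries with the same replicate number. With so few pairs its smallest possible p is high. A call lost there cannot tell a weaker difference from the limit of the test. In livers without Y-linked transcripts Col4a1 to Col1a1 was not called from D0 to YC (-1.003), and Col4a1 to Col4a2 lost its call without vehicle 1 and YC 4 (-0.26), alternatives chosen after seeing the data, as was median-ratio scaling without YC 6 and YC 7. For fits that left out 1 library at a time, the share of all genes called is not given here. These fits gave 14 to 15 members called higher from D0 to vehicle and 18 to 21 from D0 to YC. Between YC and vehicle livers they gave 5 to 8, the 8 without YC 6 and without YC 7. The Col4a1 to Col4a2 difference between YC and vehicle livers then ran from -0.30 to -0.24 and, from D0 to YC, from -0.20 to -0.13, and Col3a1 to Col1a1 from D0 to YC from -0.48 to -0.29.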
